A study of Homo sapiens with 12 samples.

Results

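Tubulin isotypes and stathmin, 10 genes of the 19460 in the deposited RNA table, were followed in T-47D cells given palbociclib. The set holds 4 alpha tubulins (TUBA1A, TUBA1B, TUBA1C and TUBA4A), 5 beta tubulins (TUBB, TUBB2A, TUBB3, TUBB4B and TUBB6) and STMN1, which encodes stathmin. The genes were picked by name with their RNA values in this comparison in view, so those values are described here and not tested. T-47D is an established human breast cancer line of luminal, oestrogen receptor positive type, and palbociclib inhibits CDK4 and CDK6, the kinases that start the path from G1 into S phase. All cells carried the wild-type genotype of the line and were kept for 24 h either in medium with 1 µM palbociclib or in medium with the solvent DMSO, which served as the control. RNA sequencing of poly(A) RNA covered 3 biological replicates of each treatment, and ATAC-seq, which measures how open chromatin is to a transposase, covered 3 other biological replicates of each. A single cell line at a single dose and time was compared, so nothing here speaks of other lines, doses or times.

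Microtubules are built from dimers of alpha and beta tubulin. Vertebrates carry several near-identical genes for each, called isotypes, some used in nearly all cells and others, such as TUBB3, known mainly from neurons. Free tubulin dimers are known to limit the stability of tubulin mRNA, a feedback called autoregulation, and stathmin binds free dimers and promotes the shrinkage of microtubules. Stathmin is abundant in dividing cells and is switched off by phosphorylation when the mitotic spindle forms.

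The libraries carried the marks of the line and of the drug. All 8 luminal epithelial markers were in the RNA table, at mean levels from 45.7 FPKM (fragments scaled to transcript length and library size, so that genes can be compared) to 2514.5 FPKM. Their summed level was 5434.0 to 5962.6 FPKM with DMSO and 7345.5 to 8126.8 FPKM with palbociclib. Most of that sum was KRT8, KRT18 and KRT19, while EPCAM was at 184.9 to 201.2 FPKM with DMSO and at 167.2 to 189.3 FPKM with palbociclib. Of 4 fibroblast markers, 2 were in the table, and their sum was 23.5 to 24.7 FPKM with DMSO and 24.1 to 26.3 FPKM with palbociclib, nearly all of it COL1A1. The part of these markers in the results was not tested. The leukocyte marker and both endothelial markers had no row there. Of 5 neuronal markers only SYT1 was listed, at 5.16 to 5.79 FPKM with DMSO and 5.16 to 5.26 FPKM with palbociclib. As a check of the drug response, 3 genes picked by name were read, and each fell. The log2 change was -3.65 for CCNE2, the gene of cyclin E2 (SE 0.067, limma adjusted p = 1.75e-09), -3.60 for the proliferation marker MKI67 (SE 0.057, limma adjusted p = 8.08e-10) and -2.91 for E2F1 (SE 0.051, limma adjusted p = 1.33e-09). In bulk RNA of this kind, fewer cells that express a gene and less RNA per cell cannot be told apart.

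Among the 10 genes, 8 had groups of libraries that did not overlap, which was also so for 54.7% of the 15869 genes tested. With the threshold used for the whole table, a limma adjusted p under 0.05, 6 of the 10 lay lower (22.9% of all genes) and 2 higher (20.9% of all genes). A log2 change of -1 or below was found in 5 of them, and in 3.07% of all genes. The label in the authors' deposited table marks TUBA1B, TUBA1C, TUBB, TUBB4B and STMN1 as lower. It gives the others as ns, among them TUBA1A (log2 change 0.32, SE 0.038), TUBB3 (0.44, SE 0.11) and TUBB6 (-0.73, SE 0.068). Of the 10, those marked lower had log2 changes of -1.12 or below in that table, so ns need not mean no change. The median log2 change was -0.90 over the 10 genes and 0.0023 over all genes tested. Since the genes were chosen in view of these changes, nothing is read from these shares.

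**Figure D1:**
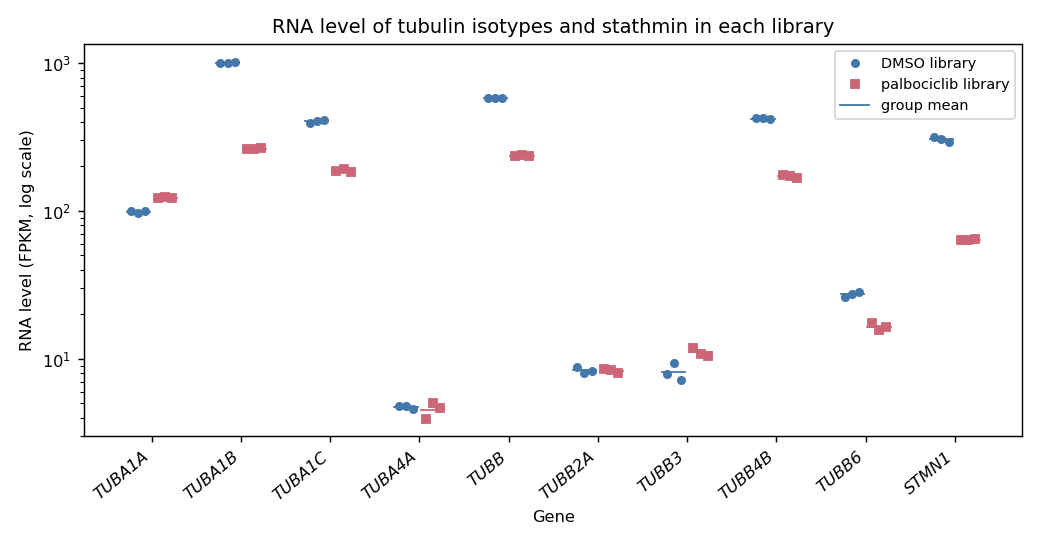
RNA level in FPKM (log axis) of each tubulin gene and STMN1 in each of the 6 libraries, with the group means as lines. TUBA1B, TUBA1C, TUBB, TUBB4B, TUBB6 and STMN1 lie lower in the 3 palbociclib libraries, TUBA1A and TUBB3 lie higher, and the groups of TUBA4A and TUBB2A overlap.

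TUBA1B (ENSG00000123416, chr12:49127782-49131395 on GRCh38.p14) was the alpha tubulin with the highest RNA level. Its level was 1000.5, 1004.1 and 1021.5 FPKM with DMSO and 262.5, 264.4 and 265.5 FPKM with palbociclib. Each palbociclib library thus lay far below each DMSO library, and the mean of 264.1 ± 1.48 FPKM (SD, n = 3) was 26.2% of the DMSO mean of 1008.7 ± 11.2 FPKM (SD, n = 3). On the log2(FPKM + 1) scale the difference was -1.93 (SE 0.026), and the authors' deposited table gives -1.93 for it. TUBA1C (ENSG00000167553, chr12:49227926-49274600), which lies near it on the chromosome and encodes an almost identical protein, was at 396.5, 405.6 and 412.3 FPKM with DMSO and at 185.2, 191.4 and 183.7 FPKM with palbociclib. Here too all 3 treated libraries were the lower ones, at 46.1% of the DMSO mean, a log2 difference of -1.11 (SE 0.03).

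TUBA1A (ENSG00000167552, chr12:49184795-49189080), the isotype between these on chromosome 12 and the main alpha tubulin of developing neurons, went the other way. Its level was 99.49, 96.69 and 99.42 FPKM with DMSO and 121.8, 124.5 and 121.8 FPKM with palbociclib, a log2 difference of 0.31 (SE 0.029). The 3 treated libraries were all above the 3 controls, by a step that was small beside the change of TUBA1B. TUBA4A (ENSG00000127824, chr2:219249710-219254740), an isotype that lacks the encoded C-terminal tyrosine of other alpha tubulins, was the least abundant of the 10, at 4.823, 4.758 and 4.559 FPKM with DMSO and 3.937, 4.998 and 4.662 FPKM with palbociclib. Its groups overlapped, and the log2 difference was -0.05 (SE 0.08).

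The 250 bases before the start of a gene were read for these members from RefSeq promoters on GRCh38.p14, to show what the 3 neighbours on chromosome 12 have in common and where they differ. Motifs of 3 kinds known from cell cycle promoters were searched on both strands: E2F sites (TTTGGCGC, TTTCCCGC, TTTCGCGC or TTTGCCGC), the cell cycle homology region or CHR (TTTGAA or TTCGAA), and the CCAAT box (CCAAT). None of these letter strings contains another, and a reading on the opposite strand of TTCGAA is the same string. The windows are printed 5′ to 3′ on the strand of the gene, and capitals mark the matches, which are matches of letters and not measured sites. They are chr12:49131396-49131645 (minus strand) for TUBA1B, chr12:49264832-49265081 (plus strand) for TUBA1C, whose start at 49265082 was picked from 3 listed starts after the matches were seen, and chr12:49189081-49189330 (minus strand) for TUBA1A.
TUBA1B: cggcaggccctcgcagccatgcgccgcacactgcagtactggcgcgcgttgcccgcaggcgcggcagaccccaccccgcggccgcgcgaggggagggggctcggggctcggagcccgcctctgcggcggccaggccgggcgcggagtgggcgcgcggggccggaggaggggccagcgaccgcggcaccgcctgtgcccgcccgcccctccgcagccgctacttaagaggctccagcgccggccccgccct
TUBA1C: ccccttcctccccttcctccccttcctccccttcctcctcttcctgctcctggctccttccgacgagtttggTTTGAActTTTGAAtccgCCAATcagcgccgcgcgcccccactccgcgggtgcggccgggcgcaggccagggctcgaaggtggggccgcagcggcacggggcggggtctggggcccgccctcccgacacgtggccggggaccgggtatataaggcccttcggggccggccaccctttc
TUBA1A: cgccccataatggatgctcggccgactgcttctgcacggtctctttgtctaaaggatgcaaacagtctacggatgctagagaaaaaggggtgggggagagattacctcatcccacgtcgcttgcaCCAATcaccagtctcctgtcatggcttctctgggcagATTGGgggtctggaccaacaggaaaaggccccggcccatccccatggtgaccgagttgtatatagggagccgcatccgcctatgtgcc
The window of TUBA1B, the alpha tubulin with the lowest level relative to DMSO, held none of these strings. That of TUBA1C held TTTGAA at -178 and -170 and CCAAT at -160, where positions count the first base of the match back from the start. TUBA1A, which lay higher with the drug, held CCAAT at -125 and, on the opposite strand, at -88.

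TUBB (ENSG00000196230, chr6:30720352-30725422) was the most abundant beta tubulin. It was at 582.9, 582.4 and 584.6 FPKM with DMSO and at 233.8, 237.8 and 237.0 FPKM with palbociclib. The treated mean was 40.5% of the control mean, and the log2 difference was -1.30 (SE 0.026). TUBB4B (ENSG00000188229, chr9:137241287-137243707), another widely used isotype, was at 424.4, 424.7 and 417.4 FPKM with DMSO and at 175.1, 173.1 and 166.1 FPKM with palbociclib. Its treated mean was 40.6% of the control mean, with a log2 difference of -1.30 (SE 0.03), so these 2 genes on different chromosomes stood at nearly the same fraction of their control level.

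TUBB6 (ENSG00000176014, chr18:12307669-12329826), a more divergent beta isotype, was at 26.33, 27.35 and 28.42 FPKM with DMSO and at 17.5, 15.7 and 16.33 FPKM with palbociclib. The treated libraries were again all lower, at 60.3% of the control mean, a log2 difference of -0.70 (SE 0.05). TUBB2A (ENSG00000137267, chr6:3153666-3157544) was at 8.792, 8.029 and 8.254 FPKM with DMSO and at 8.511, 8.354 and 8.007 FPKM with palbociclib, groups that overlap. The log2 difference of TUBB2A was -0.01 (SE 0.054), and its sign depends on the scaling: it was 0.08 after quantile normalization and 0.09 after each library was centred on its median.

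TUBB3 (ENSG00000258947, chr16:89921925-89936097), the isotype used as a neuronal marker, was at 7.839, 9.294 and 7.238 FPKM with DMSO and at 11.81, 10.8 and 10.49 FPKM with palbociclib. The 3 treated libraries were the 3 highest, although the controls ran from 7.238 to 9.294 FPKM (SD 1.06, n = 3). The log2 difference of 0.40 (SE 0.086) was the highest among the 10 genes. The levels of SYT1, the listed neuronal marker, overlapped between the groups.

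For the beta tubulins the windows shown are those at the start of TUBB, TUBB4B and TUBB3, the first 2 because they stood at the same fraction of control and the third because it lay higher. They are chr6:30720102-30720351 (plus strand), chr9:137241037-137241286 (plus strand) and chr16:89923092-89923341 (plus strand). TUBB and TUBB3 each have 2 listed starts, and the start with matches is shown.
TUBB: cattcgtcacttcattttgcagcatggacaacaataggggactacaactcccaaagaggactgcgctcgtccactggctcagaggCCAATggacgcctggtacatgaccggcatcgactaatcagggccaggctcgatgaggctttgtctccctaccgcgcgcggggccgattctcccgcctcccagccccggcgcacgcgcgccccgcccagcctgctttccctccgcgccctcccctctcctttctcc
TUBB4B: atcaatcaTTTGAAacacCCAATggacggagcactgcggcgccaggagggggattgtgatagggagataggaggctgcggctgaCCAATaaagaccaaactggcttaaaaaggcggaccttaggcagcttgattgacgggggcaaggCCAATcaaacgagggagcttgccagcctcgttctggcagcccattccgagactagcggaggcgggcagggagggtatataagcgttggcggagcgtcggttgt
TUBB3: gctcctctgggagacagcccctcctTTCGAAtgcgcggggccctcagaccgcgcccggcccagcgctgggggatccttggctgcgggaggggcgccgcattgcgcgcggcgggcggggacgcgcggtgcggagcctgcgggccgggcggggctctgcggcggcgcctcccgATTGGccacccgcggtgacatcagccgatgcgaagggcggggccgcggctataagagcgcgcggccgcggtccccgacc
The TUBB window held CCAAT at -165. The TUBB4B window held TTTGAA at -242 and CCAAT at -232, -166 and -103. The TUBB3 window held TTCGAA at -225 and, on the opposite strand, CCAAT at -79.

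STMN1 (ENSG00000117632, chr1:25884179-25906880) had the most negative log2 difference of the 10 genes. It was at 314.4, 308.2 and 293.2 FPKM with DMSO and at 63.15, 63.93 and 64.39 FPKM with palbociclib. The treated libraries lay close together at a mean of 63.82 ± 0.626 FPKM (SD, n = 3), which was 20.9% of the DMSO mean of 305.3 ± 10.9 FPKM (SD, n = 3). The log2 difference of STMN1 was -2.24 (SE 0.033), and -2.26 in the authors' deposited table. The window before its start at 25906419, chr1:25906420-25906669 on the minus strand, is shown since it held the sole E2F string within 100 bases of a start among the 10 genes; it is 1 of 3 listed starts.
STMN1: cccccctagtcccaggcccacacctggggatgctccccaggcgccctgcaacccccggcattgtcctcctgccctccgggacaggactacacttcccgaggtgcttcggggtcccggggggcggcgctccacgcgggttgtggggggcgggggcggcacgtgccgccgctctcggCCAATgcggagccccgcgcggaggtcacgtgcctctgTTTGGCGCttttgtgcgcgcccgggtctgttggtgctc
TTTGGCGC began at -38 and CCAAT at -75. A further start at 25906880 had TTTCCCGC as the first letters of its window, at -250. Over the 17 windows of the 10 genes, E2F strings were found in 2 windows (1 gene), CHR strings in 4 (3 genes) and CCAAT in 9 (7 genes). Of the 35116 windows of the same length in the RefSeq table, 2.79% held an E2F string, 14.3% a CHR string and 32.0% a CCAAT box. Windows of a gene can overlap, as 2 of TUBA1C do, and then share a match.

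Reads from the tubulin isotypes are hard to tell apart, because TUBA1A, TUBA1B and TUBA1C have almost the same coding sequence, as do TUBB2A and TUBB2B. How reads that match several copies were assigned is not given in the sources used here, so the split between such copies is uncertain. Reads of splicing events give a second look for some of the genes from the same libraries. Scaled to the reads of the skipped exon table (CPM of that table), spliced reads of TUBA1B went from 85.1 ± 3.9 to 23.2 ± 2.4 (SD, n = 3 each), a log2 ratio of -1.88. Those of TUBA1A went from 19.5 ± 0.69 to 25.3 ± 2.1, a log2 ratio of 0.37. For STMN1 such reads gave -2.15 and for TUBB6 -0.54. For TUBB4B, reads that include an exon, those inside it as well as those at its junctions, gave -1.30. TUBA4A and TUBB2A, with 45 to 130 such reads in a library, gave -0.21 and -0.17. TUBB and TUBA1C had no listed event from which such reads could be taken, and the events of TUBB3 concern alternative exons, whose reads need not follow the level of the gene.

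The order of the levels differed between the groups. With DMSO the mean levels ran, from high to low, TUBA1B, TUBB, TUBB4B, TUBA1C, STMN1, TUBA1A, TUBB6, TUBB2A, TUBB3 and TUBA4A. Only TUBB2A and TUBB3, at 8.358 ± 0.392 and 8.124 ± 1.06 FPKM (SD, n = 3), were neighbours in this order whose libraries overlapped. With palbociclib the order was TUBA1B, TUBB, TUBA1C, TUBB4B, TUBA1A, STMN1, TUBB6, TUBB3, TUBB2A and TUBA4A, and no neighbours overlapped. TUBA1A thus stood above STMN1, and TUBB3 above TUBB2A, in the treated cells.

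Summed over the alpha tubulin genes of the table, the RNA level went from 1517.0 ± 19.1 FPKM with DMSO to 578.3 ± 6.25 FPKM with palbociclib (SD, n = 3 each), or 38.1% of control. The beta tubulin sum went from 1051.1 ± 3.17 to 446.3 ± 4.6 FPKM, or 42.5% of control. The ratio of the alpha to the beta sum was 1.427, 1.434 and 1.468 with DMSO and 1.276, 1.306 and 1.305 with palbociclib, so both sums stood at a similar fraction of control, the alpha sum a little lower.

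The make-up of the alpha pool differed between the groups by more percentage points than that of the beta pool. TUBA1B made up 66.5% ± 0.12 of the alpha tubulin FPKM with DMSO and 45.7% ± 0.47 with palbociclib (SD, n = 3 each). TUBA1A, whose own level stood at 124.6% of control, went from 6.5% ± 0.12 to 21.2% ± 0.058 of a sum that was lower. TUBA1C went from 26.7% ± 0.24 to 32.3% ± 0.39 although its level was lower. In the beta pool TUBB went from 55.5% ± 0.28 to 52.9% ± 0.87 and TUBB4B from 40.2% ± 0.28 to 38.4% ± 0.66. The minor isotypes took a larger share, TUBB6 going from 2.6% to 3.7%, TUBB3 from 0.773% to 2.47% and TUBB2A from 0.795% to 1.86%.

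**Figure D2:**
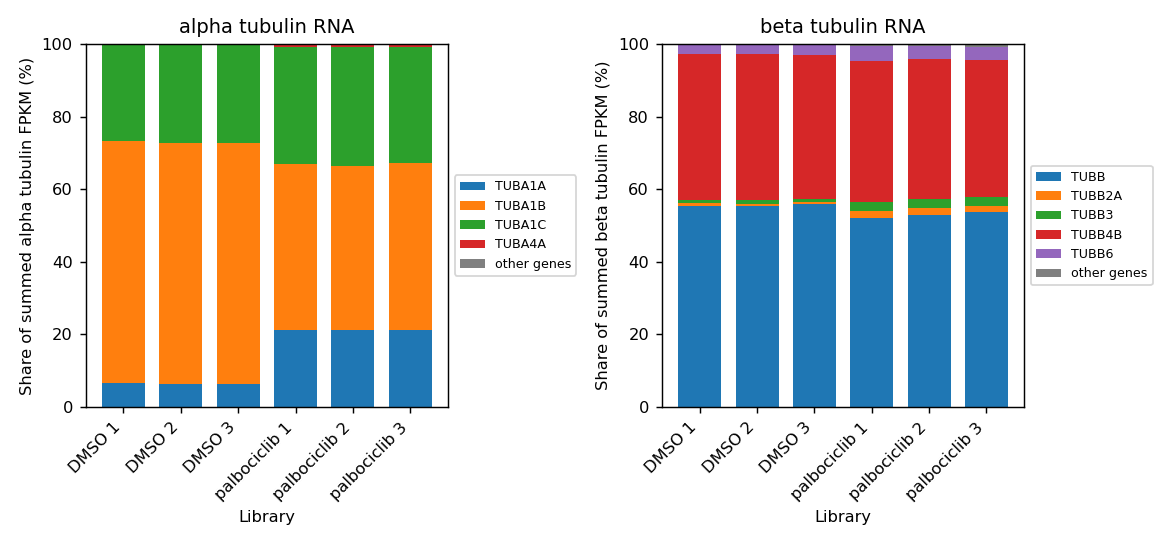
Share of each isotype in the summed FPKM of the alpha (left) and beta (right) tubulin genes, in percent, in each of the 6 libraries. TUBA1A takes 6.4% to 6.63% of the alpha sum with DMSO and 21.2% to 21.3% with palbociclib, while TUBB and TUBB4B keep most of the beta sum in each library.

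The genes most like STMN1 were sought over the 6 RNA libraries among 9888 genes with a mean of at least 5 FPKM, by the Euclidean distance between log2(FPKM + 1) values less the DMSO mean. The nearest were KNSTRN, a spindle and kinetochore protein (distance 0.119, log2 difference -2.25), STIL, needed for centriole duplication (0.123, -2.22), and AURKA, the mitotic kinase Aurora A (0.137, -2.18). The nearest to TUBB3 were SLC44A3 (distance 0.083, log2 difference 0.42), FAM219B (0.105, 0.37) and PIERCE2 (0.11, 0.43). With the DMSO mean taken off, this distance mostly reflects the size of the change between the groups. A shared role of these genes was not tested.

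To place these 10 genes, 143 other genes of the microtubule system were grouped in 7 lists. The lists were chosen with earlier results of these data known, and the same RNA libraries were used. The counts and p-values for them therefore describe these libraries and are no independent support. Of these, 120 were tested, 11 lay under the minimum of 0.5 FPKM and 12 had no row under their symbol. Over the 120 genes, 17 rose and 63 fell at a limma adjusted p under 0.05, where the whole table had 20.9% higher and 22.9% lower, and their median log2 change was -0.18. With each library centred on its median, which shifted the median change of all genes to 0.10, 25 rose and 53 fell.

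The spindle proteins, which organise microtubules in mitosis, fell most. Of 14 tested, 13 fell and 1 rose, with a median log2 change of -2.77. NUSAP1, which bundles spindle microtubules, fell by 3.76 (SE 0.06, limma adjusted p = 8.08e-10), from 159.7 ± 1.16 to 10.91 ± 1.07 FPKM (SD, n = 3 each). DLGAP5, a kinetochore fibre protein, changed by -3.33 (limma adjusted p = 6e-10) and GTSE1, a regulator of spindle microtubules, by -3.30 (limma adjusted p = 9.89e-10). NUMA1, which anchors spindle poles and is present in the nucleus through the whole cycle, was the gene that rose, by 0.18 (SE 0.031, limma adjusted p = 0.00189).

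Genes for the nucleation of microtubules came next, with 16 of 21 lower, 2 higher and a median of -0.67. HAUS8 and HAUS7, subunits of the augmin complex that branches microtubules in the spindle, changed by -1.53 and -1.15, and MZT1, a small subunit of the gamma tubulin ring complex, by -1.22 (limma adjusted p = 9.37e-08, 0.000259 and 1.18e-07). TUBGCP2, a core protein of that ring, rose by 0.33 (limma adjusted p = 0.00121), and NME7 rose by 0.27 (limma adjusted p = 0.0364). Of the 5 other tubulins tested, TUBG1, the main gamma tubulin of nucleation, fell by 0.96 from 119.2 ± 2.5 to 60.98 ± 2.39 FPKM (SD, n = 3 each, limma adjusted p = 2e-07). Its paralog TUBG2 rose by 0.51, from 32.52 ± 0.514 to 46.68 ± 0.309 FPKM (limma adjusted p = 4.74e-06), though reads of these close copies may also be split by the counting. TUBD1, the centriolar delta tubulin, fell by 0.25 (limma adjusted p = 0.00614), and TUBB2B, the near-identical copy of TUBB2A, rose by 0.41 from 1.336 to 2.1 FPKM (limma adjusted p = 0.00514).

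Changes were smaller in the lists that serve tubulin itself. Of 25 genes for the folding of tubulin and the autoregulation of its mRNA, 12 fell and 2 rose, with a median of -0.12. TCP1 and CCT5, subunits of the chaperonin that folds tubulin, changed by -0.53 and -0.56 (limma adjusted p = 1.39e-06 and 4.57e-06), and VBP1, a subunit of prefoldin, fell by 0.41 (limma adjusted p = 0.000863). PFDN5 and PFDN6, other prefoldin subunits, rose by 0.15 and 0.13 (limma adjusted p = 0.00902 and 0.0413). Of 23 enzymes that modify tubulin, 11 fell and 4 rose, with a median of -0.12. TTLL7 and TTLL4, which add glutamates to tubulin tails, changed by -0.88 and -0.61, and TPGS2, a subunit of a polyglutamylase complex, by -0.53 (limma adjusted p = 0.000272, 0.00235 and 5.29e-06). MATCAP1, which removes the C-terminal tyrosine of alpha tubulin, rose by 0.38, TTLL3, which adds glycine, by 0.36, and NICN1 by 0.32 (limma adjusted p = 0.00307, 0.00756 and 0.0231). With centring on the median these 2 lists had 8 lower and 4 higher, and 8 lower and 7 higher.

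The 31 general microtubule binding and severing proteins had 9 lower, 6 higher and a median of -0.06, a direction that depends on the scaling. After quantile normalization 9 were higher and 6 lower, with a median of 0.01, and with median centring likewise 9 were higher and 6 lower, with a median of 0.03. FIGNL1, an ATPase of the severing family that also acts in DNA repair, fell by 1.49 (limma adjusted p = 3.54e-08). The severing enzymes KATNAL1 and KATNA1 changed by -0.68 and -0.48 (limma adjusted p = 0.00047 and 0.00101). EML2 rose by 0.56, the end-binding protein MAPRE3 by 0.43 and MAPT, which encodes tau, by 0.31 (limma adjusted p = 0.000311, 0.000161 and 0.000172). Of the stathmin family and its kinase, only UHMK1, a kinase that phosphorylates stathmin, was tested, with a log2 change of -0.03 (limma adjusted p = 0.526).

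**Figure D3:**
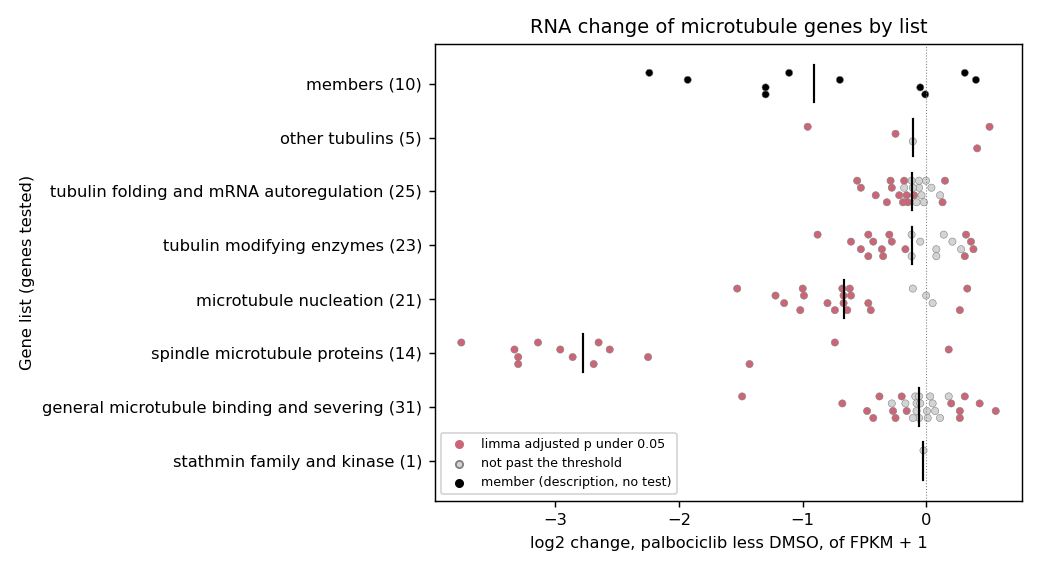
Log2 change (palbociclib less DMSO, of FPKM + 1) of the 10 tubulin and stathmin genes in black and of 120 other microtubule genes by list, with the number tested in brackets, coloured where the limma adjusted p was under 0.05, and the median of each list as a line. The spindle proteins lie farthest to the left, at a median of -2.77, and the nucleation genes at -0.67.

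Chromatin accessibility came from other libraries than those used to choose the genes and was therefore tested. Peaks, which are regions called as open, held 12830062 to 18250496 reads per library and numbered 38121, called once for all libraries. Levels are given as CPM, reads scaled to library size, after TMM normalization. Within 1 kb of a listed start, 6 peaks were found for 4 of the 10 genes, TUBA4A, TUBB, TUBB2A and TUBB3. The starts of TUBA1A, TUBA1B, TUBA1C, TUBB4B, TUBB6 and STMN1 had no peak used here and were not analysed here for accessibility. Of the 6 peaks, 0 rose and 1 fell by edgeR's quasi-likelihood test at an adjusted p under 0.05, where 5.41% of all peaks rose and 6.46% fell. An unadjusted p under 0.05 was found for 2 of the 6, and for 25.4% of all peaks.

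At TUBB, whose RNA stood at 40.5% of control, the peak over the first start (chr6:30719893-30720430, which covers the window printed for TUBB) was at 142.9, 124.9 and 135.5 CPM with DMSO and at 125.5, 133.0 and 128.1 CPM with palbociclib. The groups overlapped, and the log2 change was -0.06 (95% confidence interval -0.16 to 0.04, edgeR adjusted p = 0.497). Accessibility and RNA level are different measures, and a relation between them was not tested. A further peak of TUBB just before its second start, chr6:30721372-30721597, was at 40.3, 34.4 and 36.1 CPM with DMSO and at 33.4, 29.2 and 33.5 CPM with palbociclib, a log2 change of -0.20 (interval -0.36 to -0.04) that did not pass after adjustment (edgeR adjusted p = 0.0861). The third, chr6:30722613-30722850, inside the gene, changed by -0.07 (interval -0.27 to 0.13, edgeR adjusted p = 0.724).

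The TUBB3 peak, chr16:89923017-89923624, covers the window printed for TUBB3. It was at 42.2, 44.9 and 42.2 CPM with DMSO and at 36.8, 38.3 and 37.2 CPM with palbociclib, so all treated libraries were the lower ones, while the RNA of TUBB3 lay higher. The log2 change was -0.21 (interval -0.35 to -0.06, edgeR adjusted p = 0.0478). That call held in 2 of 12 alternatives and the adjusted p ranged from 0.0478 to 0.17 over them, while the log2 change stayed between -0.22 and -0.17. With each library left out in turn it did not pass (edgeR adjusted p from 0.0625 to 0.17). The TUBA4A peak, chr2:219253555-219254512, changed by -0.05 (interval -0.20 to 0.09, edgeR adjusted p = 0.713) and also lies within 1 kb of a start of TUBA4B. The TUBB2A peak, chr6:3156946-3157861, changed by -0.05 (interval -0.20 to 0.10, edgeR adjusted p = 0.727) and also lies within 1 kb of a start of LOC105374889.

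**Figure D4:**
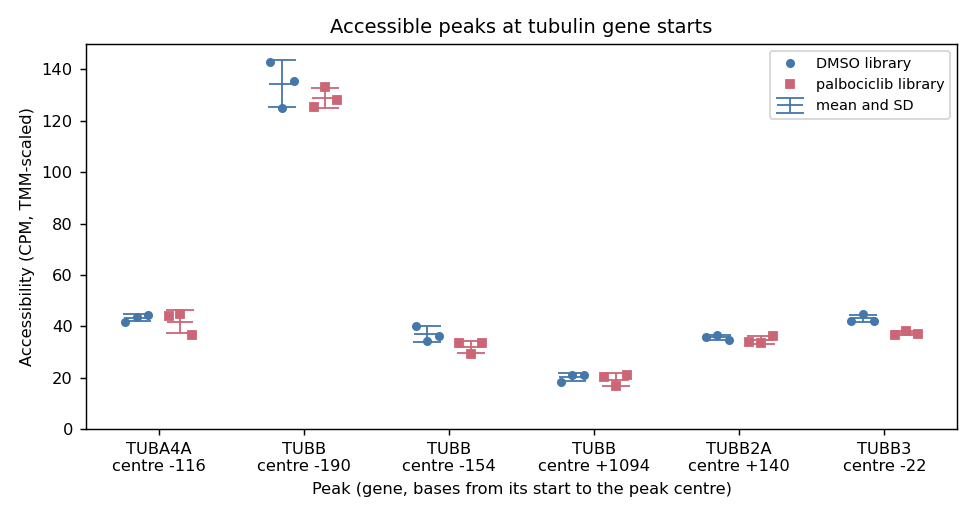
Accessibility in TMM-scaled CPM of the 6 peaks within 1 kb of a tubulin gene start, each placed by the distance of its centre from the start in bases, for the 3 DMSO and 3 palbociclib ATAC libraries, with the mean and SD. The groups are apart at TUBB3 (36.8 to 38.3 against 42.2 to 44.9 CPM) and at the second TUBB peak, and overlap at the other 4. The share of all peaks with groups apart was not worked out, so nothing is read from this count.

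Beyond 1 kb, 8 further peaks lay within 5 kb of a start or inside a gene of the set. Of these, 1 fell and 1 rose at the adjusted threshold, where 6.46% of all peaks fell and 5.41% rose. The unadjusted edgeR p was under 0.05 for 3 of 4 peaks within 5 kb, 2 of 4 inside genes and 25.4% of all peaks. The 2 that passed after adjustment are given here, chosen after their values were seen. The peak chr6:30717067-30717778 lay from -3285 to -2574 of the first TUBB start. It was also within 1 kb of a start of MDC1, a neighbour of TUBB and a DNA damage checkpoint gene. Its level was 279.6, 258.5 and 277.1 CPM with DMSO and 222.2, 220.2 and 210.0 CPM with palbociclib. It fell by 0.32 (SE 0.043, edgeR adjusted p = 1.01e-07) and kept an adjusted p under 0.05 in 12 of 12 alternatives. Inside STMN1, the peak chr1:25890378-25890840 lay 15205 to 15667 bases after the start at 25906045, the most downstream of its listed starts. The STMN1 peak was at 7.94, 9.71 and 7.4 CPM with DMSO and at 9.99, 12.2 and 11.5 CPM with palbociclib. It rose by 0.41 (SE 0.14, edgeR adjusted p = 0.0415), while the RNA of STMN1 lay lower. That peak passed in 6 of 12 alternatives, with adjusted p from 0.0262 to 0.206; without DMSO replicate 1, DMSO replicate 3, palbociclib replicate 2 or palbociclib replicate 3 it did not pass.

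Splicing was read from tables of inclusion and skipping reads for 5 kinds of event, from the same RNA libraries. They held 28 events in 8 of the 10 genes, and 10 events in 7 genes passed the filters, which asked for 20 reads in the mean library and for the minor form to make up 5% of reads or more. Of these 10, 0 were called by edgeR's quasi-likelihood test at an adjusted p under 0.05, against 0.35% of all events that passed, and 3 had an unadjusted p under 0.05, against 8.53% of those events. By the authors' deposited FDR, 1 of the 10 was under 0.05, against 3.82% of all events that passed, and 3 of the 28 were, against 2.47% of all events before the filters.

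The event of the 10 was the retained intron of TUBA4A, chr2:219251324-219251564. Its inclusion level, the share of transcripts that keep the intron, was 0.029, 0.052 and 0.031 with DMSO and 0.049, 0.144 and 0.081 with palbociclib. The groups overlapped, the palbociclib libraries were widely spread, and only 71.5 reads per library stood behind it. The authors' deposited FDR was 0.0111 and the edgeR adjusted p was 0.345. In TUBB3, the exon chr16:89934330-89934575 was included at 0.274, 0.467 and 0.379 with DMSO and at 0.376, 0.285 and 0.242 with palbociclib, groups that overlap. A pair of overlapping TUBB3 exons that end at 89933367 differed by 0.0287 and 0.0147, and a TUBB6 exon from 12320536 to 12320744 on chromosome 18 by 0.0217, all with edgeR adjusted p from 0.876 to 0.977.

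The major alpha tubulin had a rare exon that stood apart. The TUBA1B exon chr12:49130119-49130274, of 156 bases, was included at 0.003, 0.002 and 0.002 with DMSO and at 0.018, 0.014 and 0.016 with palbociclib. The groups were well apart, but the exon's form made up too few reads for the filter on the minor form. The exon was picked out after its values were seen. That filter counts reads without scaling to length, so a TUBA1B retained intron at inclusion levels of only 0.004 to 0.006 passed it. The exon lies within this intron, chr12:49129723-49131297, whose inclusion reads went from 440, 511 and 326 to 155, 156 and 190. How many of the exon's reads came from the retained intron was not tested. Reads that skip the exon went from 4746, 6748 and 4375 to 1414, 1597 and 1880, while reads that include it went from 37, 39 and 26 to 65, 60 and 80. Without the filter on the minor form the edgeR adjusted p was 0.0497, and 0.053% of all events then tested were called. The authors' deposited FDR was 0.00515 for this exon. The forms that extend the exon to 49130344 and 49130402 share its boundary at 49130119 and its skipping reads. They had edgeR adjusted p of 0.0626 and 0.209 without that filter, and 0.0237 and 0.316 as the authors' deposited FDR.

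**Figure D5:**
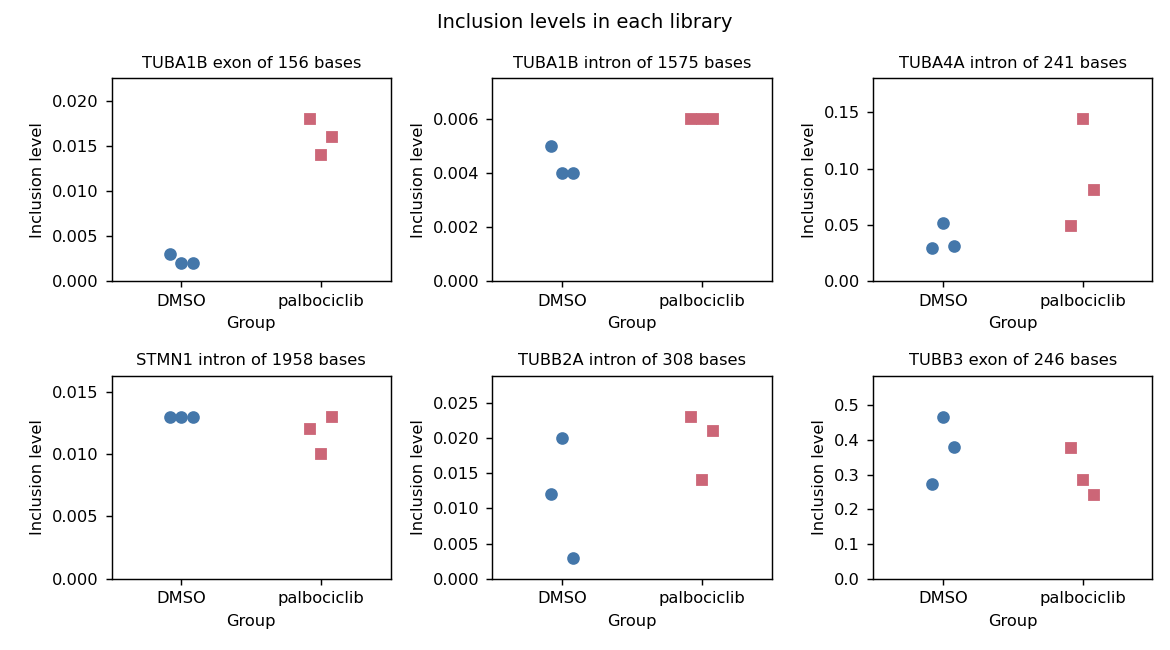
Inclusion level, from 0 to 1, of 6 events of TUBA1B, TUBA4A, STMN1, TUBB2A and TUBB3 in the 3 DMSO and 3 palbociclib RNA libraries, each panel with its own scale from 0. The TUBA1B exon lies at 0.002 to 0.003 with DMSO and at 0.014 to 0.018 with palbociclib, and the TUBA4A intron reaches 0.144 in a single palbociclib library.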

How the data were processed

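RNA levels were FPKM values deposited by the authors with 1 column per library, and splicing read counts and inclusion levels came from rMATS tables deposited by the authors, per the file headers. The submitters' processing notes name fastp 0.23.2, Salmon 1.10.2, STAR 2.7.10b and DESeq2 1.44.0 for RNA and Bowtie2, Picard, MACS3 and featureCounts for ATAC-seq, with build GRCh38, in no stated role. Which of them made the FPKM, and with which strand, is not given in the sources used here. The authors' deposited DESeq2 table gives log2 fold changes, a score (the Wald statistic), p-values and a mean normalized signal, of which the log2 changes were read. The splicing tables give the difference in inclusion as a score deposited by the authors, and a p-value with an FDR, of which the FDR was read. ATAC reads per peak are raw counts deposited by the authors, made with featureCounts over 1 peak set, per the file headers. FPKM carry no counts, so the total RNA depth of each library is unknown. The splicing tables hold reads per library, but only those of the listed events.

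From these, RNA levels were taken as log2(FPKM + 1), which understates the change of low genes, and genes whose mean reached 0.5 FPKM were fitted by limma 3.58.1 (R 4.3.3, trend on intensity). Peaks were compared with edgeR 4.0.16 after TMM, and splicing with edgeR on inclusion and skipping reads, with a term per library. P-values were adjusted by Benjamini-Hochberg over the whole table (within event type for splicing), and the scripts were tested on simulated data. DESeq2 1.42.0 was an alternative for peaks. Groups came from the labels. Gene coordinates, starts and promoter windows came from RefSeq on GRCh38.p14, and the 50 bases after each start were left out. The genes followed and the lists were chosen with earlier results of these data known. By rule, up to 3 genes with the largest rise and 3 with the largest fall of each list were named (adjusted p under 0.05, mean of at least 1 FPKM, groups apart), with CCNE2, MKI67 and E2F1, each peak within 1 kb of a start, the 5 filtered events with the largest difference, and the 3 genes nearest to STMN1 and TUBB3. Proteins were not used here.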

Additional observations from a re-analysis of the deposited data

How the results depend on the processing

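Over 14 alternatives of scaling, filter, pseudocount, trend, left-out library, replicate block and the authors' deposited table, the latter chosen after seeing the data, the log2 change kept its sign for TUBA1A (0.30 to 0.41), TUBA1B (-1.98 to -1.83), TUBA1C (-1.13 to -1.02), TUBB (-1.31 to -1.20), TUBB3 (0.33 to 0.50), TUBB4B (-1.31 to -1.20), TUBB6 (-0.74 to -0.60) and STMN1 (-2.27 to -2.14), and changed sign for TUBA4A (-0.11 to 0.04) and TUBB2A (-0.04 to 0.09). The 1 start peak with lower accessibility became 0 with DESeq2, with library totals in place of TMM and with an offset smoothed on abundance. It also became 0 with the replicate block and, as a range of 0 to 0, without each replicate in turn. With a start window of 5 kb it became 2, which adds the peak near MDC1. The cause of the other changes was not tested. The 0 splicing events called became 1 without the filter on the minor form (the TUBA1B exon) and 1 by the authors' deposited FDR (the TUBA4A intron). The TUBA4A peak at -0.05 ranged from -0.10 to 0.03 over left-out replicates, above 0 without palbociclib replicate 3, and the TUBB peak from 30722613 at -0.07 ranged from -0.13 to 0.03, above 0 without palbociclib replicate 2; neither passed the threshold at any setting. Same-numbered RNA libraries had correlations of deviations of 0.106, -0.00513 and 0.0879, and ATAC libraries of 0.00523, 0.0389 and -0.0251, so the numbers were not taken to pair libraries; with the replicate block 18 listed genes rose and 66 fell, and 0 start peaks and 0 splicing events were called.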

Other observations

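Some complexes within the lists, picked out after their values were seen, had members that moved in a single direction. All 8 augmin subunits, HAUS1 to HAUS8, fell at a limma adjusted p under 0.05, with log2 changes from -1.53 to -0.62, and all 8 also did so after quantile normalization and after median centring. Of the 8 subunits of the CCT chaperonin, which folds tubulin, 6 fell and 0 rose, with a median of -0.18; 4 fell with median centring. The gamma tubulin ring proteins TUBGCP2 to TUBGCP6 were split, with 3 lower and 1 higher.

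The known factors of tubulin mRNA autoregulation did not pass the threshold. TTC5, which binds nascent tubulin, had a log2 change of -0.02 (limma adjusted p = 0.881), and SCAPER, which links it to the decay machinery, had -0.18 (limma adjusted p = 0.0521). Among the enzymes that set the tyrosine state of alpha tubulin, TTL, which adds the tyrosine, fell by 0.43 (limma adjusted p = 0.00285), and the vasohibins VASH1 and VASH2, which remove it, changed by -0.30 and -0.35 (limma adjusted p = 0.0301 and 0.00695), with 1 of the 2 still lower with median centring. ATAT1, which acetylates alpha tubulin, rose by 0.31 (limma adjusted p = 0.00489).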
